A study of Mus musculus with 8 samples.

Results

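Cholesterol synthesis and its control by SREBP were followed step by step in the ovary of lethal yellow (LY) mice treated with pioglitazone. The genes were taken from a list of 32 members, and each was read from its brightest named probe on the array. A named probe was found for 26 of the 32, out of 18069 genes named on the array. No expression value is given for Acat2, Stard4, Npc1, Soat1, Soat2 and Osbp, which had no such probe. The 8 mice were females of the C57BL/6J Ay/a genotype, which carry an agouti allele active in most tissues and become obese and insulin resistant with age. Pioglitazone in DMSO (n = 4) or DMSO alone as vehicle (n = 4) was given by mouth every day for 60 days, from 120 days of age. The ovaries were taken at 180 days, after the mice had fasted overnight. The daily dose is 0.01 mg in the study's methods and 0.1 mg in the text of the deposited series. Each ovary came from a separate mouse and was hybridized to its own CodeLink array. The whole ovary was measured, trimmed of fat by the authors, so fewer cells of a type and less RNA per cell cannot be told apart.

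Cells build cholesterol from acetyl-CoA. The mevalonate pathway makes isoprenoid units, these are joined to farnesyl diphosphate and squalene, and squalene is closed to lanosterol and trimmed to cholesterol. SREBP transcription factors are held in the endoplasmic reticulum with Scap and the Insig proteins when sterol is plentiful. When sterol is short, they are cut by the proteases of Mbtps1 and Mbtps2 and switch on most genes of the pathway, often together with the factor NF-Y. In the ovary cholesterol is also the starting material of progesterone, androgens and estrogens, and steroid-making cells take up much of it from lipoproteins.

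The promoters of 3 members are shown because Idi1 and Dhcr7 are among the genes called below and Hmgcs1 carries the only match to the SREBP element. Each window runs from 250 bases before to 50 bases after the transcript start in RefSeq (GRCm38.p6), written 5' to 3' on the strand of the gene. Capitals mark the SREBP element TCACNCCAC, the NF-Y box CCAAT or its reverse ATTGG, and none of these overlap.
Idi1, chr13:8885356-8885655, plus strand: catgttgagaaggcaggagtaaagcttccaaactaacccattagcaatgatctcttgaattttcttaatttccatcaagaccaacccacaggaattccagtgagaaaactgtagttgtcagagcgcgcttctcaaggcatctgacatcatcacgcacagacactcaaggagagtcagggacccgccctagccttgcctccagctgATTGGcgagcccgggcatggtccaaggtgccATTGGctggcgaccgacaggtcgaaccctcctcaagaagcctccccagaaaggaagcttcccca
Dhcr7, chr7:143829964-143830263, plus strand: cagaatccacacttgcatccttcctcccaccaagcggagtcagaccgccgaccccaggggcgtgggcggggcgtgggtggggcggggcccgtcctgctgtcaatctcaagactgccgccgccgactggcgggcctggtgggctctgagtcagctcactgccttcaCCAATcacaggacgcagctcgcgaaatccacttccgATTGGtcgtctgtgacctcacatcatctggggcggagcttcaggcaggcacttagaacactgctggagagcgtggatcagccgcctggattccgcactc
Hmgcs1, chr13:119690101-119690400, plus strand: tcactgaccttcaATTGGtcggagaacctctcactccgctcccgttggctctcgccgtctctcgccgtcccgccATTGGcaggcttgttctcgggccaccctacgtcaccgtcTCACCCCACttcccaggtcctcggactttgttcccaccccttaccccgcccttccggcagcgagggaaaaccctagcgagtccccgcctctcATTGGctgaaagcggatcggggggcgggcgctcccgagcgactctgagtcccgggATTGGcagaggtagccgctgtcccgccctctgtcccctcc

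RefSeq windows were at hand for 26 of the 32 members, 34 windows in all. A NF-Y box on either strand was found in 23 of the 34 (67.6%), against 37.4% of all 32851 windows. The Idi1 window above holds 2 of them, 45 and 14 bases before the start. The SREBP element was found in 1 of the 34 windows, that of Hmgcs1, at 137 bases before the start, against 1.24% of all windows. The E-box CACGTG was found in 5 of the 34 (14.7%), in windows of Dhcr7, Insig1, Sc5d and Scap, against 7.15% of all. The 2 windows of Scap overlap and hold the same E-box, which is thus counted in both. Dhcr7 has 3 windows. The one at the start of the annotated gene holds none of these motifs, and another holds the E-box alone. The one shown holds 2 NF-Y boxes and is the only Dhcr7 window with any. A match of letters is not a binding site. Fdps, Fdft1, Sqle, Stard4, Npc1 and Soat2 had no window.

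All 26 members passed the filter on dim probes, a mean of at least 0.2 relative intensity units in at least 1 group. These units are linear intensities divided by the median of the array. Between 82.7% and 84.0% of all probes on an array reached 0.2. Correlations of log2 values between arrays ran from 0.937 to 0.989. The array of vehicle mouse 3 stood apart most, being the lowest of the 8 on 22.6% and the highest on 25.4% of the probes tested. It was not the only one, as pioglitazone mouse 1 was the highest on 21.1% and vehicle mouse 1 on 17.5%. Oocyte genes such as Zp3 (29.5 to 62.8) and the steroidogenic gene Hsd3b1 (113 to 242) were well measured in every mouse. The endothelial gene Cdh5 and the inhibin subunit gene Inhbb were under 0.2 in all 8 mice. The number of arrays, 4 in each group, limits the precision.

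Of the 26 members, 4 were called lower with pioglitazone and 0 higher at unadjusted p under 0.05 in limma. These were Idi1, Fdps, Fdft1 and Dhcr7, enzymes of cholesterol synthesis. Of all 30634 probes tested, 3.53% were called lower, 1.97% higher and 5.5% in either direction. Among the brightest probes of the 16065 named genes tested, 3.27% were called lower, 1.57% higher and 4.85% in either direction. No probe passed an adjusted p of 0.05, and the adjusted p in limma was 0.837 for each of the 4 genes. Idi1, Fdps and Fdft1 carry the pathway from isopentenyl diphosphate to squalene, and Dhcr7 closes it.

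Idi1 encodes the isomerase that turns isopentenyl diphosphate into dimethylallyl diphosphate. It was measured at 3.97, 5.03, 4.00 and 3.99 relative intensity units in vehicle mice 1 to 4, and at 3.19, 2.09, 2.49 and 1.81 in pioglitazone mice 1 to 4. Every pioglitazone value was below every vehicle value. The group means were 4.25 ± 0.52 and 2.39 ± 0.60 (SD, n = 4 each), a ratio of 0.564. The log2 fold change was -0.85 (standard error 0.19, unadjusted p in limma 0.00163), and 0.0783% of the probes tested had a smaller p. The two-sided exact permutation p was 0.0286, the smallest that 4 against 4 mice allow.

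Fdps, farnesyl diphosphate synthase, stands at the branch point of sterols and isoprenoids. Its levels were 72.7, 104, 80.8 and 58.2 in the vehicle-treated mice and 67.4, 37.1, 45.3 and 45.6 in the pioglitazone-treated mice. Pioglitazone mouse 1 was above vehicle mouse 4, so the groups overlapped, and the other pioglitazone mice were below all vehicle mice. The means were 78.9 ± 19.2 and 48.8 ± 13.0 (SD, n = 4 each), with a log2 fold change of -0.70 (standard error 0.23, unadjusted p in limma 0.0143). The exact permutation p, two-sided, was 0.0571.

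Fdft1 encodes squalene synthase, the first enzyme that is used for sterols alone. Vehicle mice were at 9.58, 7.46, 5.59 and 7.98, and pioglitazone mice at 4.63, 5.33, 4.32 and 4.95. The groups did not overlap, though vehicle mouse 3 came close to the highest pioglitazone mouse. The means were 7.65 ± 1.65 and 4.81 ± 0.43 (SD, n = 4 each), a ratio of 0.628. The log2 fold change was -0.65 (standard error 0.18), with an unadjusted p of 0.00559 in limma and an exact permutation p of 0.0286.

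Dhcr7, which reduces 7-dehydrocholesterol to cholesterol, was at 4.37, 3.32, 4.19 and 3.45 in vehicle-treated and 3.05, 3.21, 2.70 and 2.15 in pioglitazone-treated mice. The gap between the groups was narrow, with vehicle mouse 2 at 3.32 and pioglitazone mouse 2 at 3.21. The means were 3.83 ± 0.52 and 2.78 ± 0.47 (SD, n = 4 each). The log2 fold change was -0.47 (standard error 0.17, unadjusted p in limma 0.0232). Dhcr7 lost its call without vehicle mouse 1 (log2 fold change -0.41, p in limma 0.0644) and without pioglitazone mouse 4 (-0.35, p in limma 0.067). Idi1, Fdps and Fdft1 kept theirs with each of the 8 mice left out in turn.

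**Figure D1:**
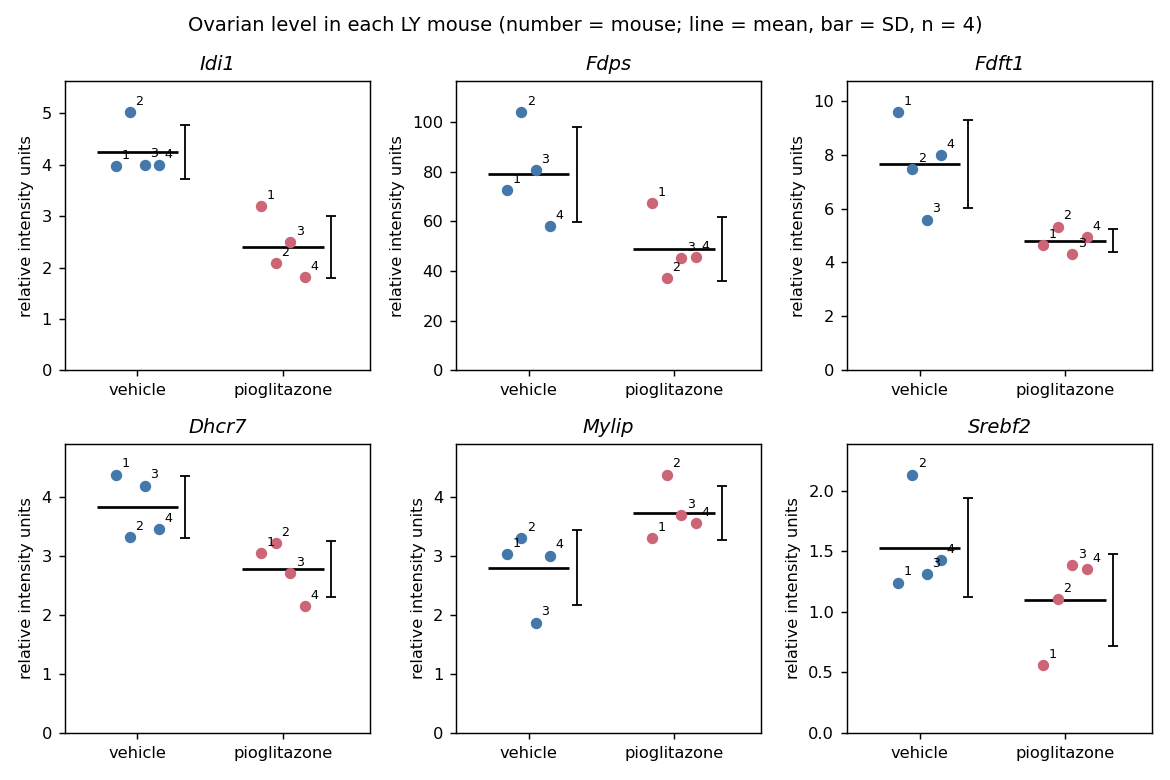
Relative intensity units (linear axes from 0) of Idi1, Fdps, Fdft1, Dhcr7, Mylip and Srebf2 for every LY mouse given vehicle or pioglitazone, with points numbered by mouse, lines at group means and bars for the SD (n = 4). Groups of Idi1, Fdft1, Dhcr7 and Mylip do not overlap, and Fdps and Srebf2 overlap.

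Groups did not overlap in 3 members that were lower, Idi1, Fdft1 and Dhcr7, and in 1 that was higher, Mylip, out of 26. Over all probes tested the shares were 3.13% lower and 1.46% higher, and over the named genes 3.04% and 1.14%. Arrays carry a mouse number in their titles, and arrays with the same number deviated together. Idi1, Fdft1 and Dhcr7 would be lower in the pioglitazone mouse under any pairing, since their groups do not overlap. Fdps, whose groups overlap, was lower in the pioglitazone mouse of all 4 numbers. So was the brightest probe of Mbtps1, which was not called. A dimmer Mbtps1 probe was higher in pioglitazone mouse 3 (1.52) than in vehicle mouse 3 (1.05). The share of all probes lower in all 4 numbers was not counted. With the mouse number as a block Idi1, Fdps, Fdft1 and Dhcr7 remained called, with p in limma from 0.00318 for Idi1 to 0.0225 for Fdps. The block called 5.2% of all probes and 5.33% of the named genes lower.

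The other early steps of the mevalonate pathway gave no calls. Hmgcs1, which makes HMG-CoA, the precursor of mevalonate, was at 1.30, 2.51, 1.4985 and 1.33 in vehicle-treated and 0.991, 1.08, 1.82 and 1.07 in pioglitazone-treated mice. Without its high mouse in each group the values would be ordered by group, but vehicle mouse 2 and pioglitazone mouse 3 stood above the rest. Its log2 fold change was -0.41 (standard error 0.27, unadjusted p in limma 0.160). Mvk, Pmvk and Mvd, the enzymes that turn mevalonate into isopentenyl diphosphate, had log2 fold changes of -0.24, 0.02 and -0.07. The level of Pmvk had means of 19.5 ± 4.4 and 19.9 ± 5.6 (SD, n = 4 each). Ggps1 draws farnesyl diphosphate away from sterols to geranylgeranyl diphosphate and had means of 4.98 ± 1.32 and 5.54 ± 0.64, with a log2 fold change of 0.19 (standard error 0.21).

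All 10 enzymes from squalene synthase onward had log2 fold changes under 0, with a median of -0.39 and a range from -0.65 (Fdft1) to -0.12 (Ebp). Of the probes tested 55.7% were under 0, as were 56.6% of the named genes. Ebp was above 0 without pioglitazone mouse 1 (0.093) and without vehicle mouse 2 (0.089), and Sqle with array weights (0.047) and without both vehicle mouse 3 and pioglitazone mouse 1 (0.004). Sqle, squalene epoxidase, was at 0.141, 0.458, 0.487 and 0.197 in vehicle-treated and 0.164, 0.297, 0.402 and 0.107 in pioglitazone-treated mice. It was under 0.2 in 4 of the 8 mice, and in both groups mice 2 and 3 were the higher ones. Its log2 fold change of -0.39 had a standard error of 0.51 and ran from -0.72 to -0.06 with 1 mouse left out, without vehicle mouse 1 and without pioglitazone mouse 4.

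Cyp51 removes a methyl group from lanosterol. It was at 17.1, 19.4, 4.58 and 15.6 in vehicle-treated and at 11.1, 10.1, 11.5 and 9.19 in pioglitazone-treated mice. Vehicle mouse 3 was the lowest of all 8, and the other vehicle mice were above every pioglitazone mouse. A dimmer second probe of Cyp51 had means of 1.83 ± 0.55 and 1.23 ± 0.53 (SD, n = 4 each), with a log2 fold change of -0.61 against -0.25 for the brighter probe. With the mouse number as a block the second probe was called lower (unadjusted p in limma 0.0127), and without the block it was not (unadjusted p in limma 0.0710).

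Lss, which closes squalene epoxide to lanosterol, and Sc5d, a desaturase near the end of the pathway, had the same shape. Lss was at 2.74, 2.39, 0.864 and 2.45 in vehicle-treated and 2.16, 1.42, 1.31 and 1.52 in pioglitazone-treated mice. Sc5d was at 39.8, 36.8, 15.0 and 32.6 against 30.9, 27.3, 17.9 and 16.2. In both genes vehicle mouse 3 was the lowest of the 8 and the other vehicle mice were the highest. Msmo1, a methylsterol oxidase, had means of 21.7 ± 6.2 and 15.3 ± 4.2 (SD, n = 4 each), and its log2 fold change was -0.50 (standard error 0.27). Tm7sf2, Nsdhl and Ebp, which reduce, demethylate and isomerize the ring, had log2 fold changes of -0.40, -0.47 and -0.12. Without pioglitazone mouse 2 that of Tm7sf2 was -0.18, and without pioglitazone mouse 1 that of Nsdhl was -0.07.

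**Figure D2:**
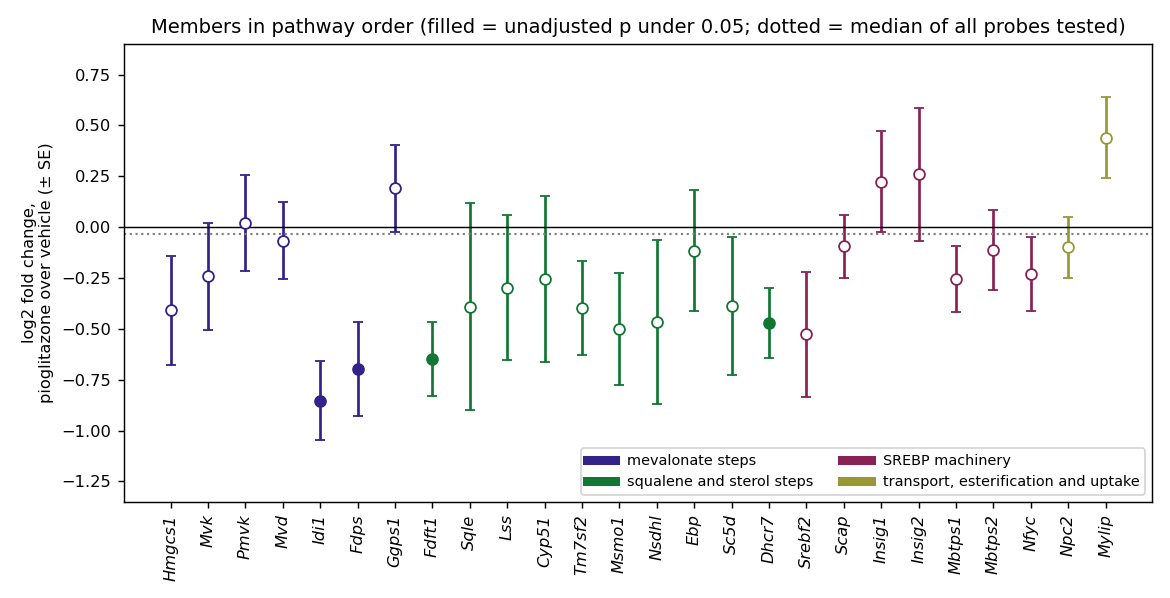
Log2 fold change of pioglitazone over vehicle with its standard error for the 26 members, ordered by pathway step and coloured by role, with filled points at unadjusted p under 0.05 in limma. Idi1 (-0.85), Fdps (-0.70), Fdft1 (-0.65) and Dhcr7 (-0.47) are filled, and the dotted line is the median of all probes tested (-0.03).

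Taking the 17 enzymes together, 15 had log2 fold changes under 0 and the median was -0.39, against -0.03 for all probes tested. No test over the list was made. Without vehicle mouse 2 the median of the enzymes was -0.20, with 13 of the 17 under 0, where 56.0% of all probes were under 0. Quantile and cyclic loess normalization moved the median of the enzymes to -0.33 and -0.30, and that of all probes to about 0 (-0.002 and -0.001). Against the vehicle mouse of the same number, the pioglitazone mouse was lower in 15 of the 17 enzymes for number 1 and 16 for number 2. It was lower in 7 for number 3 and 12 for number 4. The labels do not say what the number stands for. The share of all probes lower within each number was not counted, so these counts are not read as a result about the enzymes. Vehicle mice 1 and 2 were the highest of the 8 in 6 and 8 enzymes, and on 17.5% and 9.55% of all probes. The lowest was vehicle mouse 3 in 6 enzymes and pioglitazone mouse 1 in 5, and on 22.6% and 11.7% of all probes.

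The number of enzymes called turned on vehicle mouse 3. Without it 8 members were called lower, Lss, Cyp51, Msmo1 and Sc5d joining the 4, where 2.23% of all probes and 2.13% of the named genes were called lower. The log2 fold changes became -0.68 for Lss, -0.73 for Cyp51, -0.71 for Msmo1 and -0.71 for Sc5d, with unadjusted p in limma of 0.00711, 0.000954, 0.0176 and 0.0208. Of the 17 enzymes 16 were then under 0, and 60.2% of all probes were. Weights for array quality gave 7, the same without Cyp51, against 4.44% of all probes and 4.05% of the named genes, with 15 of the 17 enzymes and 60.6% of all probes under 0. Without pioglitazone mouse 3 the count was 6, with Hmgcs1 and Msmo1 added, against 2.2% of all probes and 2.34% of the named genes, and 15 of the 17 enzymes and 53.6% of all probes were under 0. In a comparison without vehicle mouse 3 and pioglitazone mouse 1, chosen after seeing the data, the same 8 members were called lower, against 5.98% of all probes and 6.41% of the named genes, and 14 of the 17 enzymes and 61.6% of all probes were under 0. No probe passed an adjusted p of 0.05 in any of these.

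**Figure D3:**
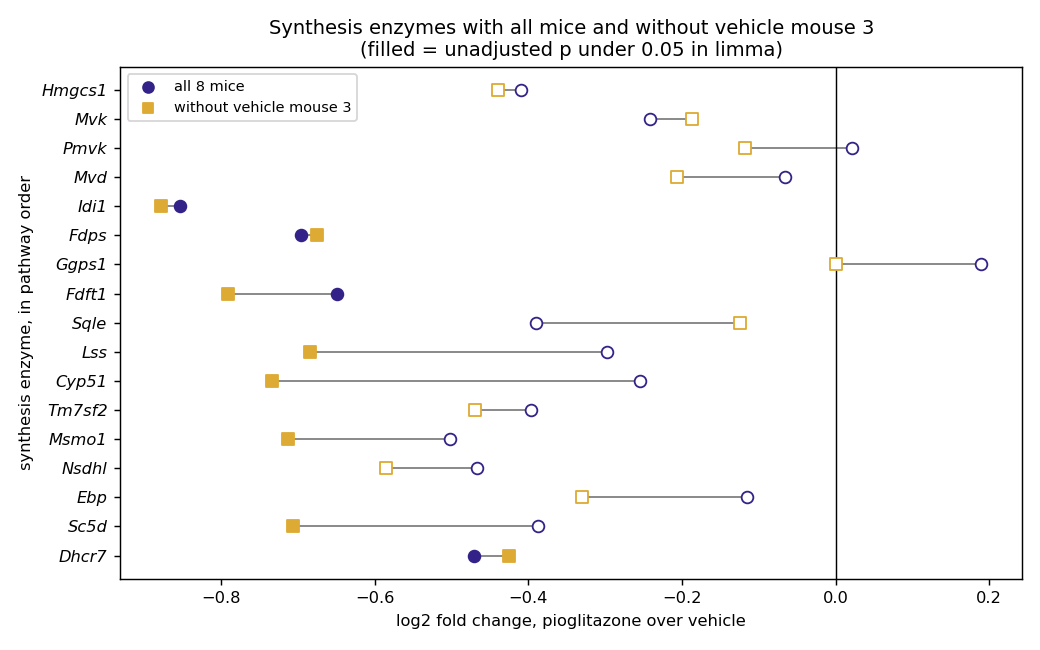
Log2 fold change of the 17 synthesis enzymes with all 8 mice (circles) and without vehicle mouse 3 (squares), filled at unadjusted p under 0.05 in limma. Lss, Cyp51, Msmo1 and Sc5d move to between -0.68 and -0.73 and become filled, while Idi1 and Fdps hardly move. Vehicle mouse 3 was the lowest vehicle mouse in Lss, Cyp51, Msmo1 and Sc5d, so their shift to lower values follows from leaving it out.

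The SREBP machinery gave 0 calls among 7 genes, with a median log2 fold change of -0.11. Srebf2, the SREBP that governs cholesterol synthesis, was at 1.24, 2.13, 1.31 and 1.42 in vehicle-treated and 0.557, 1.10, 1.38 and 1.35 in pioglitazone-treated mice. Vehicle mouse 2 was far above and pioglitazone mouse 1 far below the rest, and the other mice overlapped. The log2 fold change was -0.53 (standard error 0.31, unadjusted p in limma 0.119). A dimmer Srebf2 probe had means of 0.429 and 0.452 (log2 fold change -0.05), and another was under 0.2 in all 8 mice.

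Insig1, which retains SREBP in the endoplasmic reticulum and is itself an SREBP target, was near the limit of 0.2. Its values were 0.211, 0.237, 0.165 and 0.217 in vehicle-treated and 0.173, 0.215, 0.226 and 0.393 in pioglitazone-treated mice. Only pioglitazone mouse 4 left the common range, and without it the log2 fold change of 0.22 became -0.01. Insig2, its relative, had means of 13.3 ± 5.1 and 14.7 ± 1.9 (SD, n = 4 each), and its log2 fold change of 0.26 became -0.11 without vehicle mouse 3. A dimmer Insig2 probe had a log2 fold change of 0.06. Scap, the escort of SREBP, had means of 89.4 ± 10.3 and 83.8 ± 10.4, with a log2 fold change of -0.10 (standard error 0.15) that was above 0 with quantile (0.05) and cyclic loess (0.03) normalization. The protease genes Mbtps1 and Mbtps2 and the NF-Y subunit gene Nfyc had log2 fold changes of -0.26, -0.11 and -0.23.

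Of the genes of sterol transport and uptake, 2 of 7 had a named probe. Mylip, a ubiquitin ligase that marks lipoprotein receptors for breakdown, was at 3.04, 3.31, 1.87 and 3.01 in vehicle-treated and 3.31, 4.39, 3.70 and 3.57 in pioglitazone-treated mice. Its groups were separated only in the third decimal, by vehicle mouse 2 at 3.307 and pioglitazone mouse 1 at 3.314. The means were 2.81 ± 0.64 and 3.74 ± 0.46 (SD, n = 4 each), with a log2 fold change of 0.44 (standard error 0.20, unadjusted p in limma 0.0548). With the mouse number as a block it was called higher (p in limma 0.0433), where 3.4% of all probes and 2.69% of the named genes were called higher. Without vehicle mouse 3 its log2 fold change was 0.26 (p in limma 0.107). Npc2, which hands cholesterol out of the lysosome, had means of 46.1 ± 4.2 and 43.2 ± 6.0 and a log2 fold change of -0.10.

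**Figure D4:**
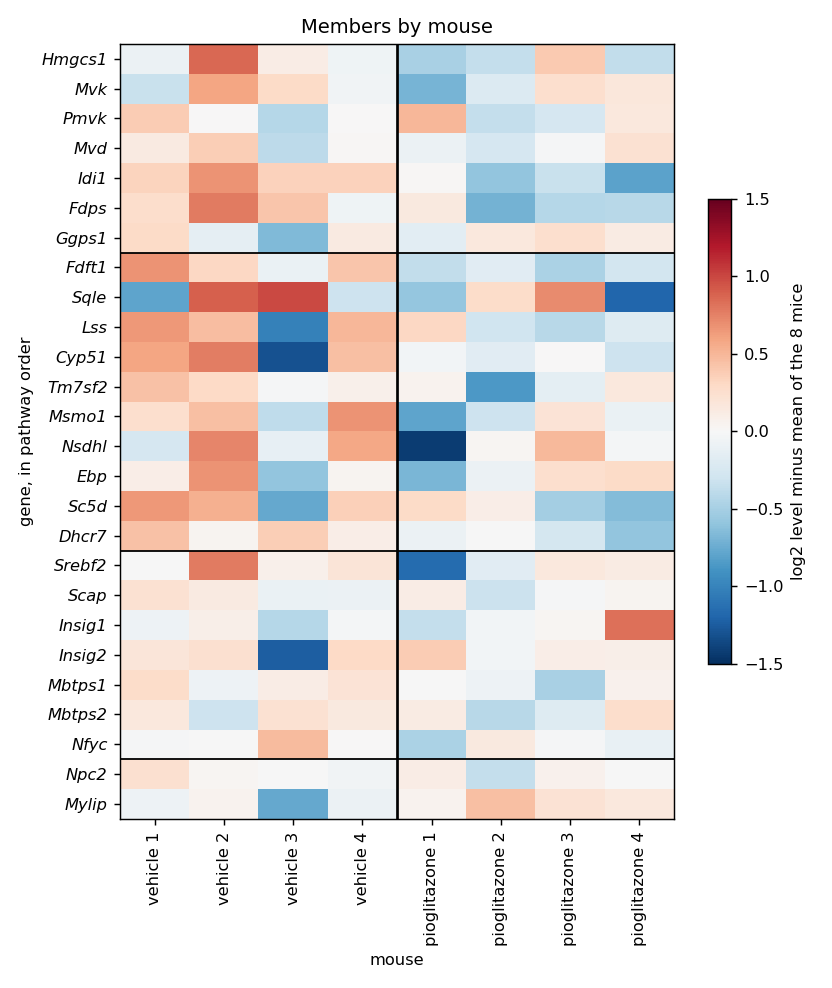
Log2 level of each of the 26 members in each mouse minus the mean of that gene over the 8 mice, in pathway order, with red above and blue below the mean and lines between the roles and the groups. Vehicle mouse 3 is blue in Lss, Cyp51, Sc5d and Insig2, unlike the other vehicle mice, and is the bluest mouse in Mylip, and pioglitazone mouse 1 is blue in Msmo1, Nsdhl and Srebf2.

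Neighbouring pathways held 1 called gene, where 5.5% of all probes and 4.85% of the named genes were called in either direction. Further sterol genes (7 tested, among them Lbr, Hsd17b7 and Tmem97) had 0 calls and a median log2 fold change of -0.19. Genes that make or use isoprenoids outside the sterol branch (10 tested) had 0 calls and ran from -0.26 (Nus1) to 0.36 (Chm). Of 14 fatty acid genes under SREBP control 0 were called, and with the mouse number as a block Fasn, Scd1 and Me1 were called lower, with log2 fold changes of -0.32, -0.47 and -0.67. Of 13 genes of sterol sensing and efflux 0 were called, and the block gave the sterol receptor gene Nr1h3 and the lipoprotein receptor gene Scarb1, both lower. With the block 5.2% of all probes and 5.33% of the named genes were called lower. Of 12 further SREBP regulators, Creb3l1, a transcription factor cut by the same proteases as SREBP, was called lower. It was at 3.18, 5.39, 5.75 and 2.78 in vehicle-treated and 2.32, 2.96, 3.39 and 2.02 in pioglitazone-treated mice, and the groups overlapped. Its log2 fold change was -0.64 (standard error 0.28, unadjusted p in limma 0.0470), and the block added Ubxn8, also lower.

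Markers of cell types were read beside the enzymes, and their part in the result was not tested. Of 9 luteal markers tested 8 had log2 fold changes under 0 and 0 were called, with a median of -0.37. With the mouse number as a block 4 were called lower, Star, Cyp11a1, Akr1c18 and Scarb1. The block called 5.2% of all probes and 5.33% of the named genes lower, and 3.4% and 2.69% higher. Without the block 3.53% and 3.27% were called lower, and 1.97% and 1.57% higher. The summed luteal level was 515.2, 628.4, 546.7 and 442.5 in vehicle mice 1 to 4 and 367.4, 443.9, 540.4 and 378.8 in pioglitazone mice 1 to 4. It was lower in the pioglitazone mouse of every number, though by little for number 3. Most of the sum comes from the bright genes Hsd3b1 (113 to 242) and Fdx1 (131 to 227). None of the 9 was near 0 in all mice, though Akr1c18 ran from 0.578 to 36.2. In each group the mean luteal deviation was above 0 in mice 2 and 3 and below 0 in mice 1 and 4. It was -0.56, 1.14, 0.71 and -0.37 in vehicle mice 1 to 4 and -1.22, 0.58, 0.73 and -1.01 in pioglitazone mice 1 to 4. The mean deviation of the 17 enzymes was 0.22, 0.49, -0.19 and 0.19 in vehicle mice and -0.24, -0.23, -0.02 and -0.22 in pioglitazone mice. Both means were lower in the pioglitazone mouse for numbers 1, 2 and 4. For number 3 the enzyme mean was higher in the pioglitazone mouse. The luteal means of number 3 were nearly equal (0.709 with vehicle and 0.73 with pioglitazone), and its summed luteal level was slightly lower with pioglitazone. Among the vehicle mice, mouse 3 had the lowest enzyme mean but a luteal mean above 0. Whether the enzymes follow the luteal markers was not tested. Granulosa markers went the other way, 8 of 8 tested being above 0 with 1 called (Fst, and with the block also Nr5a2), and their summed level ran from 90.4 to 118.6 in vehicle-treated and 98.9 to 176.1 in pioglitazone-treated mice. Of 5 macrophage markers all were under 0 with 0 called (with the block C1qa, lower), and the summed levels ran from 95.6 to 142.4 and from 86.0 to 115.6. Of 5 adipocyte markers 0 were called, and the sum was highest, at 135.8, in pioglitazone mouse 1. Of 7 oocyte, 4 theca, 4 endothelial and 1 red blood cell markers, 1 was called, the oocyte gene Padi6, which was lower (unadjusted p in limma 0.0485) and was not called with the block (p in limma 0.0674).

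**Figure D5:**
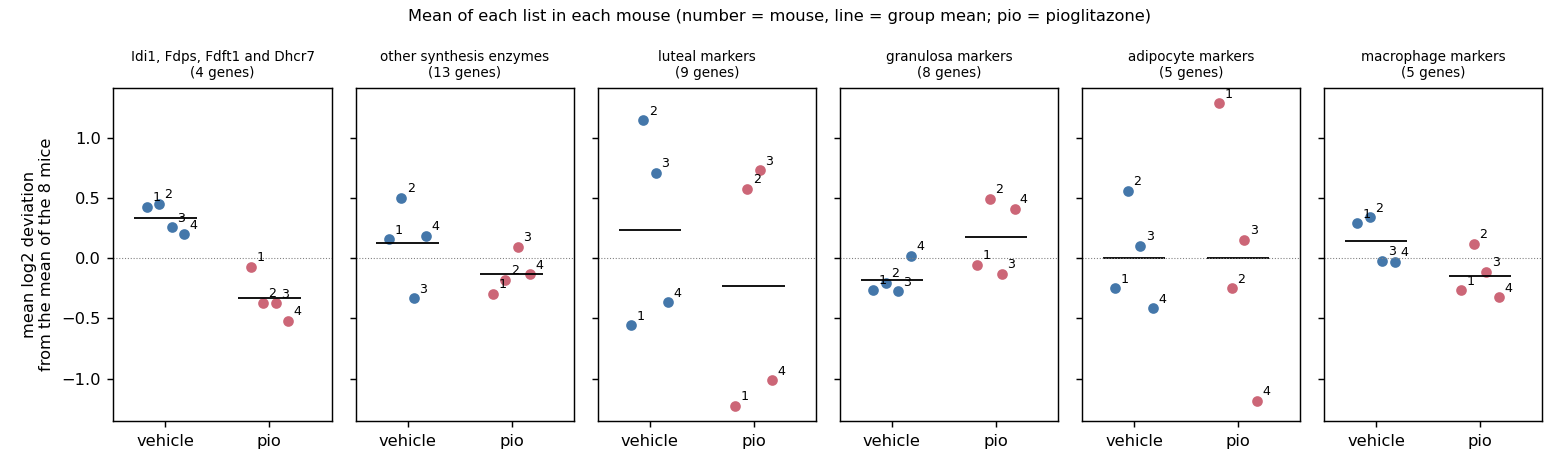
Mean log2 deviation from the mean of the 8 mice for the 4 called enzymes, the 13 other synthesis enzymes and 4 marker lists, with points numbered by mouse and lines at group means. The 4 called enzymes were picked for their difference between these same groups, so their separation follows from the choice. They run from 0.20 to 0.45 in vehicle-treated and from -0.52 to -0.07 in pioglitazone-treated mice. The 13 other enzymes run from -0.33 to 0.50 and from -0.293 to 0.095, and the luteal markers from -0.56 to 1.14 and from -1.22 to 0.73.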

How the data were processed

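One array per LY mouse was used, 4 for vehicle and 4 for pioglitazone. Black mice of the study were not analysed here. The deposited table holds linear intensity values for 36227 probes, which the authors corrected for background in CodeLink software and divided by the median of each slide, as per the study's methods. Medians of the deposited columns ranged from 1.007 to 1.014. The methods also name a per-gene median step, of which the values show no trace. Between 47 and 211 spots per array were coded missing and left out. The platform annotation gives 1 gene for 21615 probes, several for 681 and none for 13931. Probe sequences were not analysed here, so cross-hybridization was not tested.

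Arrays were rescaled to a median of 1, a floor of 0.05 was set, and the log2 scale was used in limma 3.58.1 under R 4.3.3, with p-values adjusted by the Benjamini-Hochberg method across tested probes. Testing required 3 or more values in both groups and a mean of 0.2 or higher in either. "Called" means unadjusted p under 0.05. Fold ratios are of arithmetic means. For single members, all 70 ways to assign the mice gave an exact permutation p (two-sided). The fit was tested on simulated data. Alternatives covered the floor, normalization, filter, moderation, array weights, the methods' t-test, unequal variances, linear values, the mouse number as a block, each mouse left out, and all probes of a gene. Mouse values were given for called or non-overlapping members and for Hmgcs1, Sqle, Cyp51, Srebf2 and Insig1 whatever they showed (Soat1, also in that rule, had no named probe), and were added for Lss, Sc5d and Creb3l1 after their values were seen. The members and gene lists were chosen with earlier results of these data known.

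Arrays with the same mouse number correlated after removal of group means (0.515, 0.181, 0.274 and 0.232 for numbers 1 to 4), although vehicle mouse 2 correlated best with pioglitazone mouse 3 (0.369). The labels do not say what the number stands for, so the fit without the block is given first. The p-values measure the spread between single mice, each from its own array.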

Additional observations from a re-analysis of the deposited data

Results flagged for a closer look

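Of 52 sets of 4 mice (26 members in each group), 8 held a mouse whose gap to the next mouse, divided by the range of its group, was above Dixon's 95% critical value, which chance gives in about 1 of 20. Vehicle mouse 3 accounted for 5 of the 8. It was lowest in Lss (0.864), Cyp51 (4.58), Insig2 (5.69) and Mylip (1.87), and highest in Nfyc (4.63). Vehicle mouse 2 was highest in Idi1 (5.03), where the other vehicle mice lay between 3.97 and 4.00, and lowest in Mbtps2 (0.646). Pioglitazone mouse 3 was highest in Hmgcs1 (1.82). Leaving out the outlying mouse of Idi1 gave a log2 fold change of -0.77 (p in limma 0.00606). Whether these values come from the mouse or from the array was not tested.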

How the results depend on the processing

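The 4 calls of Idi1, Fdps, Fdft1 and Dhcr7 were made in the main comparison and in all 14 alternatives that kept the 8 mice, and Idi1, Fdps and Fdft1 also with any 1 mouse left out. Over all alternatives on the log2 scale the log2 fold change ran from -1.03 to -0.73 for Idi1, -0.86 to -0.55 for Fdps, -0.79 to -0.53 for Fdft1 and -0.55 to -0.35 for Dhcr7, and the adjusted p in limma of each from 0.554 to 0.999. The count of members called lower was 7 with array weights and 8 in the comparison of 3 against 3 mice, and ran from 3 to 8 with 1 mouse left out (8 without vehicle replicate 3). The count called higher was 0, and 1 (Mylip) with array weights, at least 0.2 in every array, cyclic loess or quantile normalization, the replicate block and linear values, and 0 to 1 with 1 mouse left out. Of all probes, 1.97% were called higher in the main comparison and 3.4% with the replicate block. This share was not counted in the other settings, so 1 call among the 26 members is not read as a result. The probes called numbered 1685, 2635 with the replicate block, 2574 with 3 against 3 mice, and 737 to 2443 with 1 mouse left out, with 0 after adjustment in each. The replicate block changed no other call among members. Directions turned in genes that were not called. With 3 against 3 mice log2 fold changes were 0.004 for Mvk and for Sqle, -0.28 for Pmvk, -0.192 for Insig2 and 0.009 for Nfyc. With array weights they were -0.186 for Pmvk, 0.047 for Sqle and -0.073 for Insig2. Scap was at 0.028 with cyclic loess and 0.054 with quantile normalization, and Npc2 at 0.013 with cyclic loess. With 1 mouse left out, Pmvk ran from -0.14 to 0.151, Ebp from -0.33 to 0.093, Mvd from -0.207 to 0.046, Mbtps2 from -0.234 to 0.009, Npc2 from -0.152 to 0.004, Insig1 from -0.014 to 0.38 and Insig2 from -0.109 to 0.403. The cause of these turns was not tested. Sqle was under the limit of 0.2 in 4 and Insig1 in 2 of the 8 mice, and how far background affects their values was not tested.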
